A study of Mus musculus with 12 samples.

Results

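Hippocampal RNA of all 6 Shank2 knockout mice was set against that of all 6 wild-type mice, over 2 lines that carry different deletions in the gene, to ask which genes and processes moved the same way in both lines. All 12 libraries of the series entered the comparison. They were chosen by their line and genotype labels alone, and no measured value was used. The exon 6-7 line gave 3 knockout mice without Shank2 exons 6 and 7 (KO776, KO777 and KO864) and 3 wild-type controls (WT778, WT809 and WT865). The exon 7 line gave 3 knockout mice without exon 7 (KO969, KO990 and KO994) and 3 wild-type controls of its own (WT628, WT993 and WT999). Exon 7 is thus missing from all 6 knockouts. The strain of all 4 groups is a mix of C57BL/6J and C57BL/6N, and no treatment is named. The labels describe the study's knockouts and their wild-type littermates as males of 8 to 15 weeks.

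SHANK2 is a scaffold protein of the postsynaptic density, where it links glutamate receptor complexes to other scaffolds and to the actin cytoskeleton of the dendritic spine. Ccnd1 and Cd24a, the 2 genes taken as the markers of this comparison, are not synaptic scaffolds. Ccnd1 encodes cyclin D1, which binds the kinases CDK4 and CDK6 and drives the passage of cells through G1. Cd24a encodes CD24, a small, heavily glycosylated protein anchored in the outer cell membrane, known as a marker of immature neurons and of the ciliated ependymal cells that line the ventricles.

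Each library is a table of FPKM values, reads per gene scaled by transcript length and library size, in which a gene without a value was taken as 0. FPKM keeps no read total, so the depth is unknown and no counting error can be attached to a value. Of 24590 genes listed in any mouse, the 14214 with a mean of at least 1 scaled FPKM were tested as log2(scaled FPKM + 1); on this scale the change of low genes is understated. Knockout and wild type were compared with limma with line as a blocking term, and p-values were adjusted over all 14214 genes. The labels number every mouse separately, and p-values therefore measure the spread among mice, libraries included. The hippocampal markers Prox1, of dentate granule cells, and Wfs1, of CA1 pyramidal cells, were present in every library. Prox1 differed between the lines, at 7.41 to 8.33 scaled FPKM in exon 6-7 mice and 29.0 to 34.9 in exon 7 mice. Wfs1 ran from 51.5 to 65.9 over all mice. The share of summed FPKM from the mitochondrial genome was 6.22 to 7.39% in mice of the exon 6-7 line, against 10.3 to 14.3% in those of the exon 7 line. A set of 4 libraries (set A: WT778, KO776, WT628 and KO969, 1 of each group) did not list the gene ENSMUSG00000095746, which was at 218 to 435 FPKM in the other 8 (set B). Values within each set are given where a result rests on them.

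The targeted gene passed the test in the exon 6-7 line only. Shank2 (mm10 chromosome 7, 144001928 to 144424494, on the plus strand; ENSMUSG00000037541) measured 14.4, 13.8 and 14.9 scaled FPKM in the exon 6-7 wild-type mice and 6.22, 7.02 and 6.15 in their knockouts. In the exon 7 line it was at 36.0, 42.4 and 44.1 in the wild-type mice and at 33.2, 43.5 and 44.6 in the knockouts. The knockouts lay below all their controls in the first line and among them in the second. The effect was −1.04 on the log2 scale in the exon 6-7 line (limma adjusted p = 0.0111) and −0.02 in the exon 7 line (95% interval −0.28 to 0.24). The difference between these effects did not pass (limma adjusted p = 0.409). Over both lines it came to −0.53 (exact permutation test over 400 relabellings of genotype within lines, two-sided p = 0.045). The gene's level therefore checks the labels of the exon 6-7 line only. A transcript that lacks exon 7 alone was not told apart from the full one here, since values are given per gene.

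Ccnd1 fell in the knockouts of both lines and was the only gene past the threshold of the shared effect. With an adjusted p threshold of 0.05, 1 of 14214 genes was lower in the knockouts (0.00704%) and 0 were higher (0%). At an unadjusted p of 0.05, 246 genes were lower (1.73%) and 260 higher (1.83%), 506 in all, where evenly spread p-values would give 710.7. Fitted line by line, 2 genes passed in the exon 6-7 line (0.0141%), Rps3a1 and Shank2, and 0 in the exon 7 line (0%). The difference between the 2 line effects passed for 1 gene (0.00704%), Rps3a1.

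Ccnd1 (mm10 chromosome 7, 144929931 to 144939925, on the minus strand; ENSMUSG00000070348) measured 15.3, 14.8 and 16.7 scaled FPKM in the exon 6-7 wild-type mice and 8.73, 9.26 and 9.78 in their knockouts. It was at 18.01, 17.1 and 12.5 in the exon 7 wild-type mice and at 9.26, 8.92 and 9.28 in their knockouts. No knockout overlapped any wild type of either line, and the 6 knockouts sat within a narrow band. The means were 15.6 ± 1.01 and 9.26 ± 0.523 in the first line and 15.9 ± 2.95 and 9.15 ± 0.204 in the second (SD, n = 3 each), so that knockouts held 59.4% and 57.7% of the wild-type mean. The shared effect was −0.70 on the log2 scale (SE 0.0818, 95% interval −0.88 to −0.53, limma adjusted p = 0.0136). In an exact permutation test no other relabelling within lines but its mirror image was as extreme (two-sided p = 0.005, the smallest that 400 relabellings allow). This value takes no account of the other genes, and Ccnd1 had the smallest limma p of them all in the same mice. The effects of the 2 lines were −0.69 and −0.72, and their difference was 0.02 with a 95% interval of −0.35 to 0.39.

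**Figure D1:**
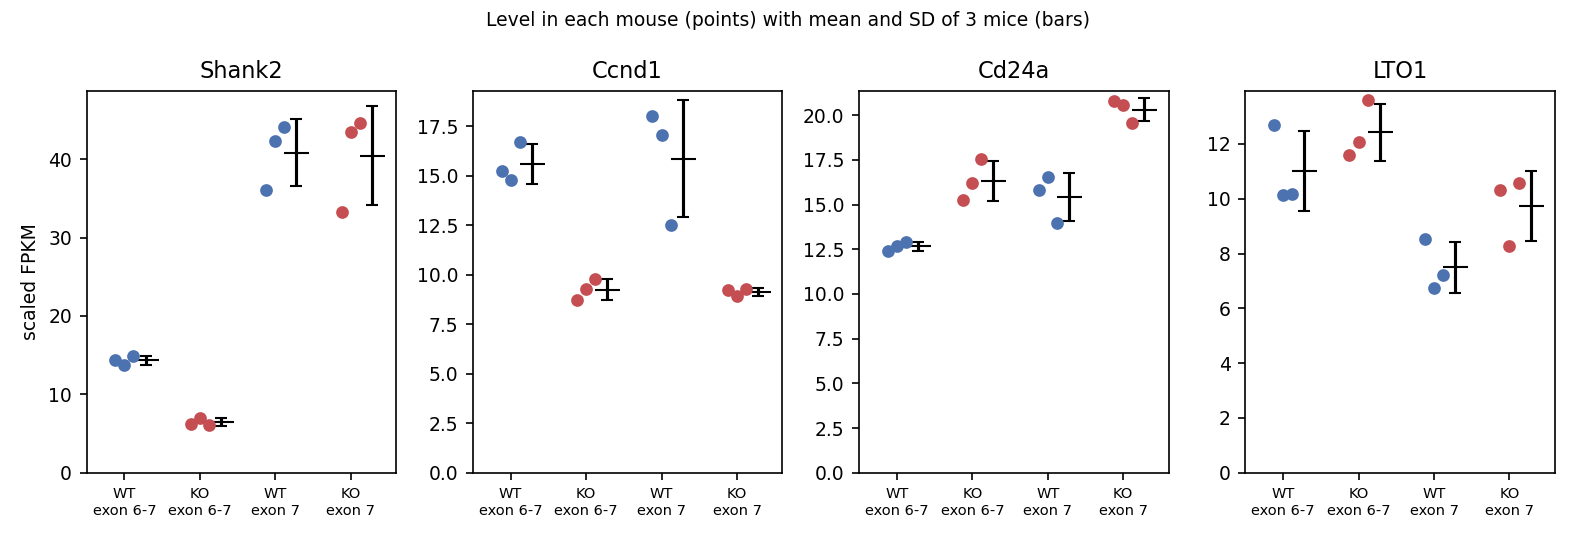
Scaled FPKM (vertical axes, each from 0) of Shank2, Ccnd1, Cd24a and LTO1 in the 3 wild-type (blue) and 3 knockout (red) mice of each line, with the mean and SD of each group as black bars. Ccnd1 is lower and Cd24a higher in all knockouts than in all controls of their line, while Shank2 parts the genotypes in the exon 6-7 line alone.

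The Ccnd1 call rests on few mice. The effect stayed between −0.77 and −0.66 when each mouse was left out in turn, but its limma adjusted p was 0.0557 without WT778, 0.0676 without WT865, 0.0698 without KO776, 0.0705 without KO777, 0.0647 without WT993, 0.0692 without KO990 and 0.0595 without KO994. Leaving out WT999, the lowest wild type of the exon 7 line, gave 0.000948. Within set A the effect was −0.81, and within set B, with 8 mice, −0.65 (limma adjusted p = 0.505). The tissue is whole hippocampus, so fewer cells that make a transcript and less of it per cell cannot be told apart, here and below.

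The list of D-type cyclins and G1 partners held no second call. Of its 30 genes 25 were tested, 1 passed (Ccnd1), and 13 had opposite signs in the 2 lines, beside 7716 of 14214 over all genes. Its median shared effect was −0.01, beside −0.00 over all 14214 genes. The other D-type cyclins had positive estimates that did not pass: Ccnd2 stood at 0.14 (effects of 0.26 and 0.02 in the 2 lines) and Ccnd3 at 0.14 (0.25 and 0.03). In the exon 6-7 line Ccnd2 was at 9.30, 9.06 and 9.98 scaled FPKM in wild types and at 12.2, 11.4 and 10.9 in knockouts, with no overlap, and in the exon 7 line at 24.2, 18.6 and 19.6 against 21.02, 22.6 and 19.6, with overlap. The kinase Cdk4 stood at −0.06, and Cdk6 was not tested, its highest value being under 1 scaled FPKM. The inhibitor Cdkn1c, encoded on the same chromosome 7 stretch, stood at 0.42 (limma unadjusted p = 0.0527, adjusted p = 0.9997). Among 16 tested genes of S phase and mitosis 0 had an unadjusted p under 0.05, and the median was 0.03.

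Ccnd1 is also known as a target of Wnt and of MAPK signalling, and other targets were read from lists of known ones. Of 14 tested Wnt and beta-catenin targets only Ccnd1 passed, and the median was −0.01. At an unadjusted limma p under 0.05, 2 were lower, Ccnd1 and Notum (background 1.73%), and 0 were higher. Notum stood at −0.22, while Fzd7 and Lef1, next by p, stood at 0.26 and 0.18. Axin2, the usual readout of the pathway, stood at 0.00 (SE 0.0873). Of 14 tested MAPK feedback targets Ccnd1 alone passed, with a median of −0.08. This median was not shared: line by line it was −0.0012 (exon 6-7) and −0.17 (exon 7). Of the 14 genes, 7 had opposite signs. Ccnd1 and Etv5 were lower at an unadjusted limma p under 0.05 (background 1.73%), and 0 were higher. Etv5, a transcription factor downstream of FGF and MAPK signalling, stood at −0.21 (−0.20 and −0.22 in the lines, limma adjusted p = 0.9997), and Dusp6, the ERK phosphatase, at −0.10.

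Ccnd1 lies on the chromosome of the deletion. Its start is 938.0 kb from that of Shank2, and 23 genes beside Shank2 that start within 2 Mb were tested, Ccnd1 among them. Ccnd1 was the only one of the 23 to pass. Their median shared effect was −0.02, and 2 genes beside Ccnd1 had an unadjusted p under 0.05, LTO1 at 0.25 and Igf2 at 0.41, both positive. Over all 14214 genes 506 had such a p, with 1.83% higher and 1.73% lower. Cttn and Ppfia1, encoding cortactin and liprin-alpha-1, lie between Shank2 and Ccnd1 and stood at −0.02 each. Ano1, a chloride channel gene, stood at 0.12, and Tpcn2, on the far side, at −0.18. Since alleles this close to a deletion are inherited with it, a change that follows from the loss of Shank2 sequence and one that follows from other differences on the same chromosome cannot be told apart in this design.

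LTO1 is the gene next to Ccnd1 and runs on the opposite strand. It was at 12.7, 10.1 and 10.2 scaled FPKM in exon 6-7 wild types and 11.6, 12.1 and 13.6 in their knockouts, and at 8.54, 6.74 and 7.20 in exon 7 wild types and 10.3, 8.27 and 10.6 in their knockouts. The groups overlapped in both lines. Its shared effect was 0.25 (limma adjusted p = 0.9997), with 0.07 within set A. LTO1 shares 1100 of the 4709 exonic bases of Ccnd1 (23.4%), and the sources used here do not say whether reads were assigned by strand, so reads in the shared part could go to either gene. The part of this overlap in the Ccnd1 value was not tested. On the same strand, 0 of the 3691 windows of 50 bases of the longest Ccnd1 transcript occur in a transcript of another gene. The reverse strand was not searched.

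**Figure D2:**
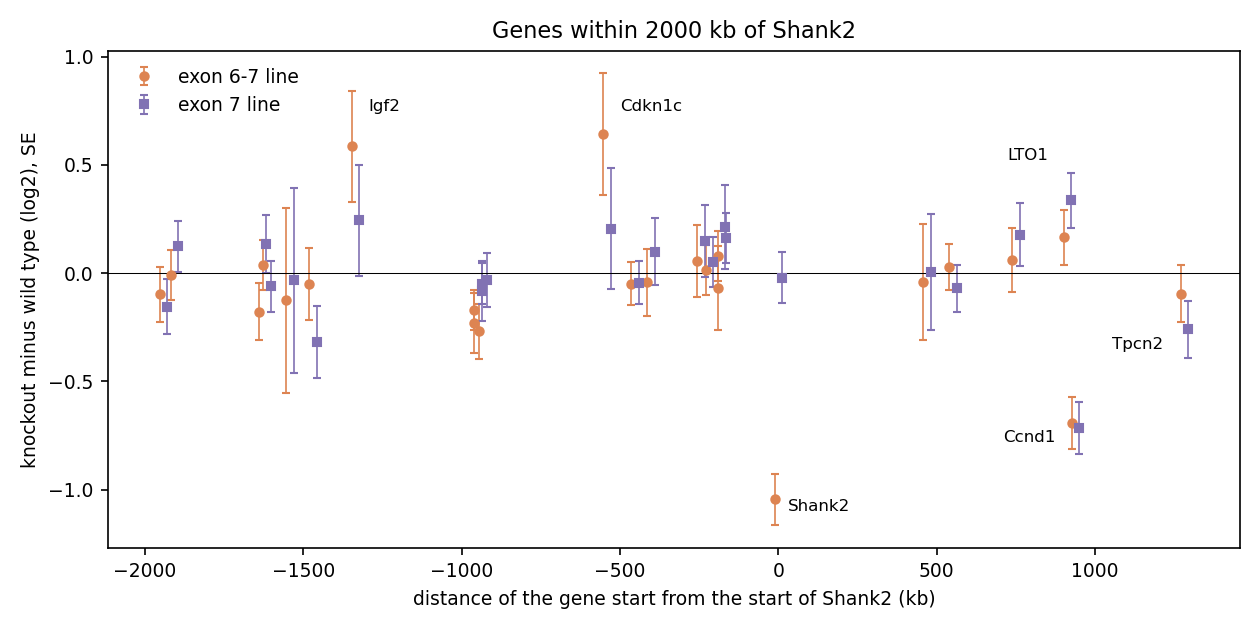
Knockout minus wild type on the log2(scaled FPKM + 1) scale (vertical axis, points with SE) for genes whose start lies within 2 Mb of the start of Shank2, by distance in kb (horizontal axis), with the exon 6-7 line in orange circles and the exon 7 line in purple squares drawn slightly to the right. Ccnd1 stands apart at −0.69 and −0.72, Shank2 in the exon 6-7 line at −1.04, and of the genes between them Cttn and Ppfia1 lie near 0 while LTO1 is at 0.16 and 0.34.

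Cd24a had the smallest p among genes higher in the knockouts, but it did not pass the threshold. Cd24a (mm10 chromosome 10, 43578284 to 43584265, on the plus strand; ENSMUSG00000047139) measured 12.4, 12.7 and 12.9 scaled FPKM in exon 6-7 wild types and 15.2, 16.2 and 17.5 in their knockouts. It was at 15.8, 16.6 and 13.9 in exon 7 wild types and at 20.8, 20.6 and 19.6 in their knockouts. All knockouts lay above all controls of their line, while the exon 7 wild types reached into the range of the exon 6-7 knockouts. The shared effect was 0.36 (SE 0.0597, 95% interval 0.23 to 0.49, limma adjusted p = 0.307), with 0.34 and 0.38 in the lines and 0.33 and 0.37 in sets A and B. Taken alone, the gene reached the smallest two-sided p of the exact permutation test, 0.005, a value that takes no account of the other genes. Of the 50-base windows of the longest Cd24a transcript 3.9% also occur in Gm6212. The partners L1cam, Cntn2 and Chl1, adhesion molecules of axons that CD24 binds, stood at −0.01, −0.13 and 0.06, and 0 of the 5 tested genes of the list of CD24 and its partners passed, with 1 (Cd24a) at an unadjusted limma p under 0.05. In the list of immature neurons and neurogenesis, which holds Cd24a, 0 of 21 tested genes passed, 1 (Cd24a) had such a p, and the median was 0.03.

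The effects of the 2 lines were nearly unrelated across genes. The 2 line effects had the same sign in 6498 of 14214 genes (45.7%), both positive in 2972 and both negative in 3526. Over genes, which are not independent, Pearson's r of the 2 effects was 0.0414 and Spearman's rank correlation −0.0776. The lines have separate wild types, and the median SE of a shared effect was 0.0965 against an SD of 0.129 of the shared effects over genes. All knockouts lay below all controls of their line, in both lines, for 39 genes (0.274%) and above for 29 (0.204%). The opposite pattern, with full separation in each line but in contrary directions, was seen for 36 genes that were lower in exon 6-7 knockouts and for 26 that were higher there. Genes that separate the genotypes the same way in both lines were thus about as many as those that do so in contrary ways.

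Genes that stood out in one line were also followed into the other. Of 289 genes higher in the exon 6-7 knockouts at an unadjusted p of 0.05, 59.2% had a positive effect in the exon 7 line, beside 46.7% of all genes. Of 294 genes lower there, 50.3% were negative in the exon 7 line, beside 53.3% of all. In the reverse order, 45.2% of 270 genes higher in the exon 7 knockouts had a positive effect in the exon 6-7 line, beside 49.4% of all, and 56.3% of 222 lower genes had a negative one, beside 50.6%. Agreement of sign was thus above that of all genes in 2 of the 4 lists and below it in the other 2. The higher lists of the 2 lines shared 12 genes, 4.15% of the 289 and 4.44% of the 270, and the lower lists shared 17, 5.78% of the 294 and 7.66% of the 222. Of all genes, between 1.56 and 2.07% met such a threshold in one direction in one line.

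**Figure D3:**
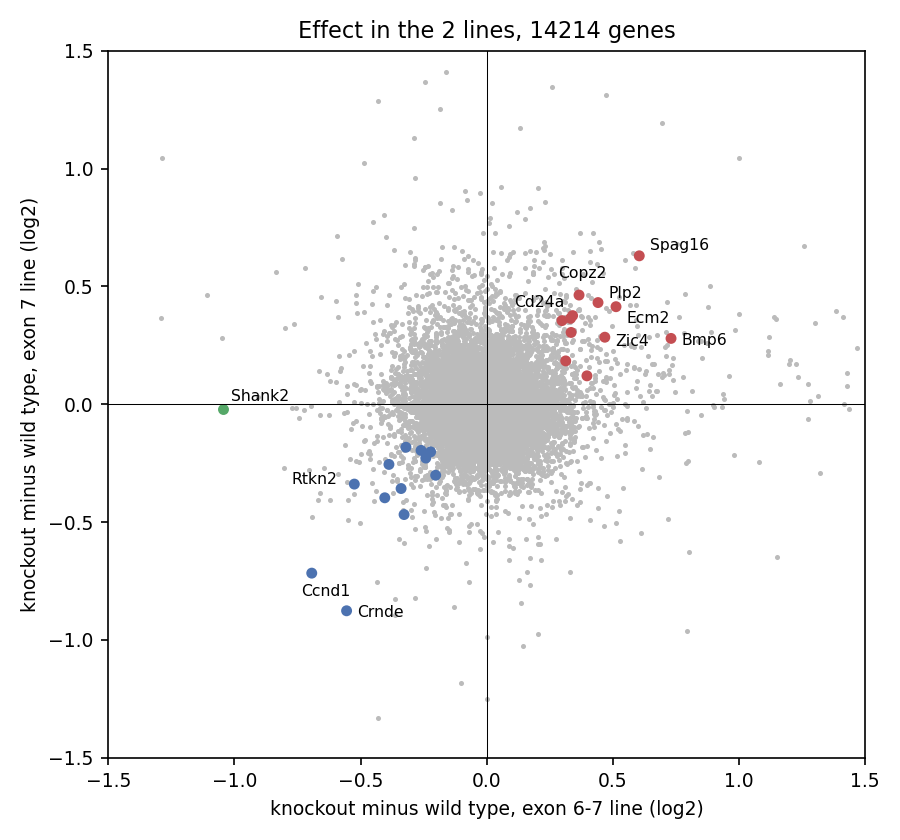
Knockout minus wild type on the log2(scaled FPKM + 1) scale in the exon 6-7 line (horizontal axis) and the exon 7 line (vertical axis) for the tested genes, with 25 genes outside the axes not drawn. The 12 named higher genes are red, the 12 named lower genes blue and Shank2 green; the grey cloud has a Pearson's r of 0.0414, and Ccnd1 lies at −0.69 and −0.72.

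Beside Ccnd1, the genes with the smallest p and one sign in both lines were named, 12 in each direction, with 13 clone or pseudogene names passed over. None of these 23 others passed (limma adjusted p from 0.307 to 0.9997), all had unadjusted p-values of at most 0.00348, and 17 of the 24 separated the genotypes fully in both lines. Since the p-value chose them, these counts describe the choice. All 24 kept their sign within set A and within set B. Both sets are parts of the 12 mice by which the genes were chosen, so this is no independent support.

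Among the 12 higher genes, 3 encode parts of motile cilia: Spag16, a protein of the central apparatus of the axoneme, Cfap45, a protein inside the axonemal microtubules, and Nme5, a radial spoke protein. The share of such genes over all genes tested was not counted. Promoters of the 24 genes were looked at for the X-box, the binding sequence of RFX factors, which are known to drive cilia genes. RefSeq promoters (GRCm38.p6, 250 bases before to 50 after the start) were at hand for 17 of the 24 genes, Spag16 and Cfap45 among them but not Nme5. The X-box was searched on both strands with the letters GTTNCNNNNGNAAC, a form chosen after these sequences were seen. It was found for 2 of the 17 genes, Spag16 and Cfap45, and for 322 of the 27025 mouse genes with a promoter in the table (1.19%). Of its 32851 promoters 338 held it (1.03%). The letters were chosen after these sequences were seen, and the genes by their p. These shares are therefore no test of a link to cilia. Of the ependymal list 8 tested genes had a promoter and 0 held these letters. Forms with more or fewer bases in the middle were not searched, so X-boxes of another spacing would be missed. The 2 promoters are shown in full on the plus strand, with the match in capitals.
Spag16, chr1:69826720-69827019: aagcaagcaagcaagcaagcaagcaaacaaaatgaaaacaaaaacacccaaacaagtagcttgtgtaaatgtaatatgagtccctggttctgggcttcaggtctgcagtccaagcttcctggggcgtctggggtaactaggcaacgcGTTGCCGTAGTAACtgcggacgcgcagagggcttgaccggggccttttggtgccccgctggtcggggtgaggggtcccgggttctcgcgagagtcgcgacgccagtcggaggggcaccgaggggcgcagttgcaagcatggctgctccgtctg
Cfap45, chr1:172520880-172521179: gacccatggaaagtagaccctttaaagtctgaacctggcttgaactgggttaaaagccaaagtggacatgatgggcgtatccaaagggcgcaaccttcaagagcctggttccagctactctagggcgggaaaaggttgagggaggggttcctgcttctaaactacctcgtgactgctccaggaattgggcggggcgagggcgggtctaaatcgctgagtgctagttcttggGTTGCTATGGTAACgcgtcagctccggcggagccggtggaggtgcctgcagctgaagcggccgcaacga
In Spag16 the match starts 103 bases before the RefSeq gene start, and in Cfap45 19 bases before it. In GENCODE, Cfap45 starts at 172520801, upstream of the whole promoter shown. A match of letters is a description and not a site of binding.

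Spag16 had the largest estimate of the 12 higher genes, at a low level. It was at 0.946, 1.77 and 0.424 scaled FPKM in exon 6-7 wild types and at 1.84, 2.23 and 1.95 in knockouts, and at 1.32, 0.956 and 1.05 in exon 7 wild types and 1.78, 2.39 and 2.67 in knockouts. The knockouts lay above the controls in both lines, with WT865 the lowest of all 12 mice. The shared effect was 0.62 (SE 0.14, limma adjusted p = 0.9155), and 0.51 without WT865. Cfap45 stood at 0.32 (0.34 and 0.30 in the lines), with no overlap in either line. Nme5 stood at 0.33 (0.30 and 0.36), and in the exon 6-7 line KO776, at 19.5, fell within the wild-type range of 17.2 to 19.8. The lowest of these wild types was again WT865.

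The other higher genes are of mixed roles. WT865 was the lowest exon 6-7 wild type for Bmp6, Tgfb2, Hspb8, Copz2, Ecm2, Plagl1 and Zic4, and the highest for Plp2. The secreted growth factors Bmp6 and Tgfb2 stood at 0.51 and 0.26. Bmp6 was at 2.05, 2.51 and 1.56 scaled FPKM in exon 6-7 wild types and at 3.87, 4.13 and 4.03 in knockouts, and at 3.24, 3.95 and 3.01 against 3.83, 4.70 and 4.47 in the exon 7 line, where the groups overlapped. Of 18 tested genes of BMP signalling 0 passed and 1 (Bmp6) had an unadjusted limma p under 0.05, with a median of 0.05 and the Id targets between −0.07 and 0.11. Hspb8, a small heat shock protein, stood at 0.35 (0.33 and 0.36) and separated the genotypes in both lines. It was at 0.21 within set A and 0.42 within set B, and Copz2 at 0.16 and 0.54. Copz2, a subunit of the COPI vesicle coat, stood at 0.42, Ecm2, an extracellular matrix protein, at 0.46, and the zinc finger factors Plagl1 and Zic4 at 0.25 and 0.38. Plp2, a small membrane protein, stood at 0.44, but 57.6% of its 50-base windows also occur in other genes, and its value is uncertain.

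Among the 12 lower genes besides Ccnd1 were Ezh2, Rtkn2, Lamp5, Tyro3 and Mal. Ezh2, the histone methyltransferase of the Polycomb repressive complex, was at 5.10, 4.74 and 5.05 scaled FPKM in exon 6-7 wild types and at 4.15, 4.12 and 3.85 in knockouts. In the exon 7 line it was at 7.85, 8.04 and 8.41 against 7.25, 6.35 and 6.73. The groups did not overlap in either line, and the effects were close, −0.24 and −0.23 (limma adjusted p of the shared effect = 0.9997). Rtkn2 stood at −0.43 and kept 50.5 and 65.7% of the wild-type mean. Lamp5, a membrane protein of a class of interneurons and of cortical neurons, stood at −0.25, with no overlap in either line.

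Tyro3, a receptor tyrosine kinase of neurons and other cells that binds GAS6, stood at −0.25 and Dusp26, a phosphatase, at −0.21, both with full separation in both lines. The receptor guanylate cyclase gene Gucy2g stood at −0.40, the autophagy gene Atg16l2 at −0.40 and the phosphodiesterase gene Gdpd5 at −0.23. The chemokine gene Ccl25 stood at −0.35 and was at −0.55 within set A. The long noncoding RNA Crnde had the largest estimate among the 24, −0.72, with the largest SE (0.194). It was at 3.14, 1.46 and 1.19 in exon 6-7 wild types and 0.635, 1.35 and 0.838 in knockouts, and at 0.956, 2.10 and 1.81 against 0.119, 0.942 and 0.270 in the exon 7 line. Its exon 6-7 groups overlapped, and within set A it stood at −1.06.

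**Figure D4:**
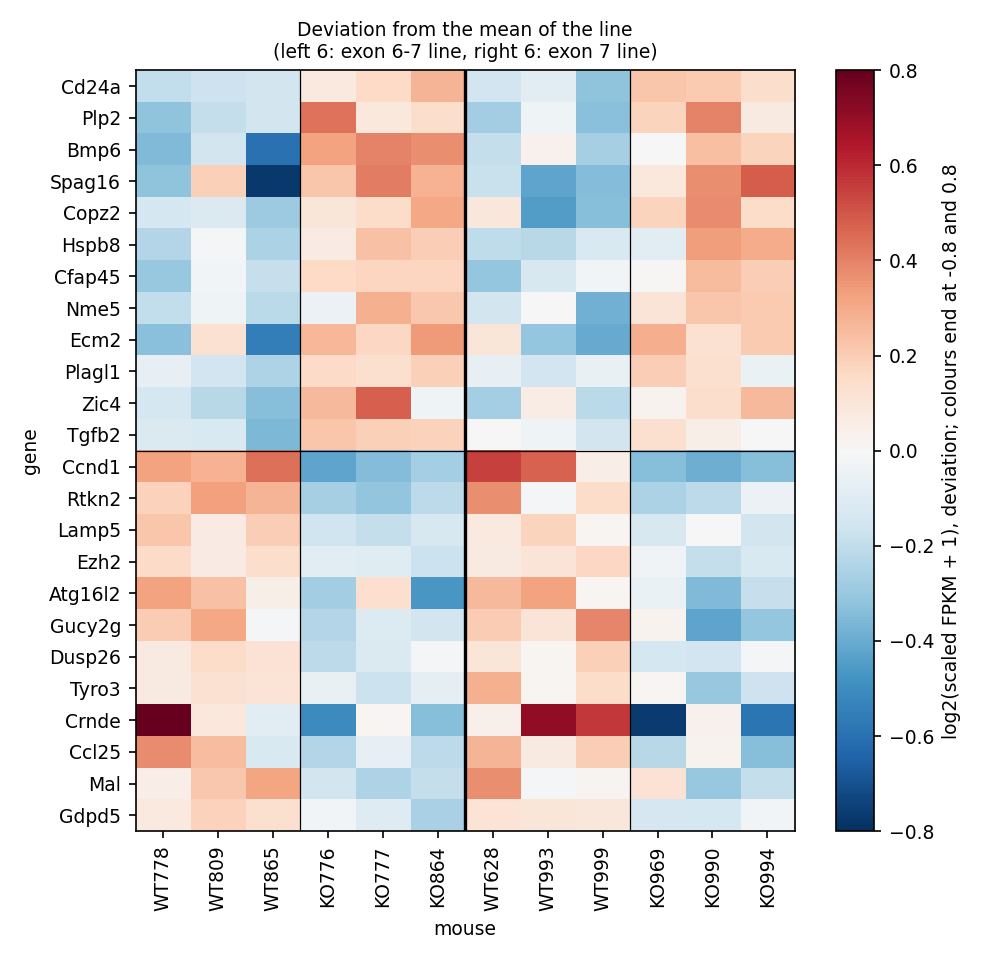
Deviation of log2(scaled FPKM + 1) from the mean of the line for the 24 named genes (rows) in the 12 mice (columns), red above and blue below the mean, with the colours ending at −0.8 and 0.8. Wild types and knockouts part in both lines by the choice of the genes; KO969, in the exon 7 line, is pale for several of the higher genes.

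Gene lists for cell types and processes were read by their counts and medians. Of all 14214 genes, 2972 were positive in both lines, 3526 negative in both and 7716 of opposite sign. Ependymal genes had positive estimates of like size in the 2 lines. Of its 16 genes 12 were tested, 11 had a positive effect in both lines and 0 a negative one, and the medians were 0.41 and 0.42 in the lines. No member passed, and 7 had an unadjusted p under 0.05, all positive (background 1.83%). Dynlrb2, a dynein light chain of cilia, had the smallest p and stood at 0.69. It was at 4.31, 12.9 and 6.24 scaled FPKM in exon 6-7 wild types and 11.7, 16.1 and 14.5 in knockouts, and at 2.38, 2.98 and 2.47 in exon 7 wild types and 2.49, 5.38 and 4.98 in knockouts. A single mouse overlapped in each line, WT809 among the knockouts and KO969 among the wild types. Tekt1, a tektin of the axoneme, stood at 0.43, Mlf1 at 0.54, Rsph4a, a radial spoke head protein, at 0.34, and Foxj1, the master transcription factor of motile cilia, at 0.36.

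WT809 and KO969 crossed over in the summed ependymal level too. The sums ran from 75.2 to 116 scaled FPKM in exon 6-7 wild types and from 96.2 to 131 in knockouts, and from 37.9 to 50.5 in exon 7 wild types and from 38.0 to 79.1 in knockouts. WT809, at 116, lay among the knockouts and KO969, at 38.0, among the wild types. Foxj1 was at 4.19 in KO969 against 10.1 and 10.9 in the other exon 7 knockouts. Without KO969 the list's median was 0.53 with 11 genes higher at an unadjusted limma p under 0.05, beside 401 of 14240 over all genes in that setting. Without WT865 it was 0.37 with 5, beside 217 of 14218. Within set A the median was 0.19 and within set B 0.53. None of the 12 tested markers had a group mean of 0. The part of ependymal cells in the values of Cd24a, Spag16, Cfap45 and Nme5 was not tested.

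Choroid plexus and meningeal markers were higher in estimate too, and here a single mouse weighed heavily. Of 20 tested choroid plexus genes 18 were positive in both lines, beside 2972 of 14214 over all genes, and 0 negative in both. In this list 0 passed, and 7 had an unadjusted limma p under 0.05, all positive (background 1.83%). The medians were 1.35 and 0.23 in the lines. WT865 stood apart: Ttr, the transthyretin gene and most abundant marker, was at 3934 scaled FPKM in WT778 and 8494 in WT809 but at 35.6 in WT865, while the exon 6-7 knockouts had 7479, 8291 and 6615. In the exon 7 line Ttr was at 1587, 1658 and 1359 in wild types and 1605, 2106 and 2208 in knockouts. The list's sums ran from 116 to 9229 and from 7452 to 9119 in exon 6-7 wild types and knockouts, and from 1867 to 2172 and from 2160 to 2881 in the exon 7 line. All 20 genes had a mean above 1 scaled FPKM in every group. Without WT865 the median shared effect went from 0.80 to 0.37, with 18 of 20 genes still positive in both lines.

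Of 16 tested meningeal and fibroblast genes 13 were positive in both lines, beside 2972 of 14214 over all genes, and 0 negative. The medians were 0.40 and 0.17. No member passed, and 7 had an unadjusted limma p under 0.05, all positive (background 1.83%). Crabp2, a retinoic acid binding protein of the meninges, stood at 0.51, and the collagen gene Col1a2 at 0.35. The sums ran from 209 to 432 and from 363 to 485 in exon 6-7 wild types and knockouts and from 180 to 212 and from 194 to 252 in the exon 7 line, with overlap in both. Igf2, one of the genes within 2 Mb of Shank2, is on this list. Of 8 tested blood genes, 4 of them haemoglobins, 6 were positive in both lines and 0 passed. The only one with an unadjusted limma p under 0.05 was the leukocyte gene Cd37, which had a negative estimate, −0.26. The list's median was 0.39, but −0.04 within set B and 1.34 within set A. The part of choroid plexus, meninges and blood in the other values was not tested.

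The estimates of the oligodendrocyte and myelin list were negative. Of 20 tested genes 19 had a negative effect in both lines, beside 3526 of 14214 over all genes. The remaining 1, Enpp2, which the choroid plexus list also holds, had a positive one. No member passed, 5 were negative at an unadjusted p under 0.05 (background 1.73%), and the medians were −0.29 and −0.12 in the lines. Mobp, a structural protein of myelin, was at 794, 966 and 1063 scaled FPKM in exon 6-7 wild types and 707, 715 and 746 in knockouts, and at 659, 658 and 748 in exon 7 wild types and 590, 637 and 652 in knockouts. The groups did not overlap, and the shared effect was −0.25. Mal stood at −0.32, and Mbp, the most abundant of the list, at −0.22, with overlap in the exon 7 line.

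The summed myelin level ran from 6389 to 7728 in exon 6-7 wild types and from 5969 to 6156 in knockouts, and from 6161 to 6337 in exon 7 wild types and from 5692 to 6054 in knockouts. The highest of all was WT865, the mouse with the least choroid plexus RNA. Without WT865 the median was −0.17, with 17 genes negative in both lines and 2 lower at an unadjusted limma p under 0.05, beside 239 of 14218 over all genes. In set B alone 18 of 20 genes were negative with such a p, beside 436 of 14259 over all genes in that setting, with a median of −0.25. Set B leaves out WT778, the exon 6-7 wild type with the lowest myelin sum. It was at 6389, against 7170 in WT809 and 7728 in WT865. Within set A the median was −0.11. Markers of oligodendrocyte precursors (8 of 12 negative in both lines, median −0.07) and of microglia (12 of 19, median −0.10) had negative medians as well. Over all 14214 genes, 3526 were negative in both lines, 2972 positive in both and 7716 of opposite sign. Of 10 tested markers of CA1 pyramidal cells 6 were negative in both lines (median −0.09). Of 14 tested markers of dentate granule cells 5 were positive in both lines, 0 negative and 9 of opposite sign (median 0.08). The medians were −0.04 for interneurons and 0.00 for astrocytes.

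**Figure D5:**
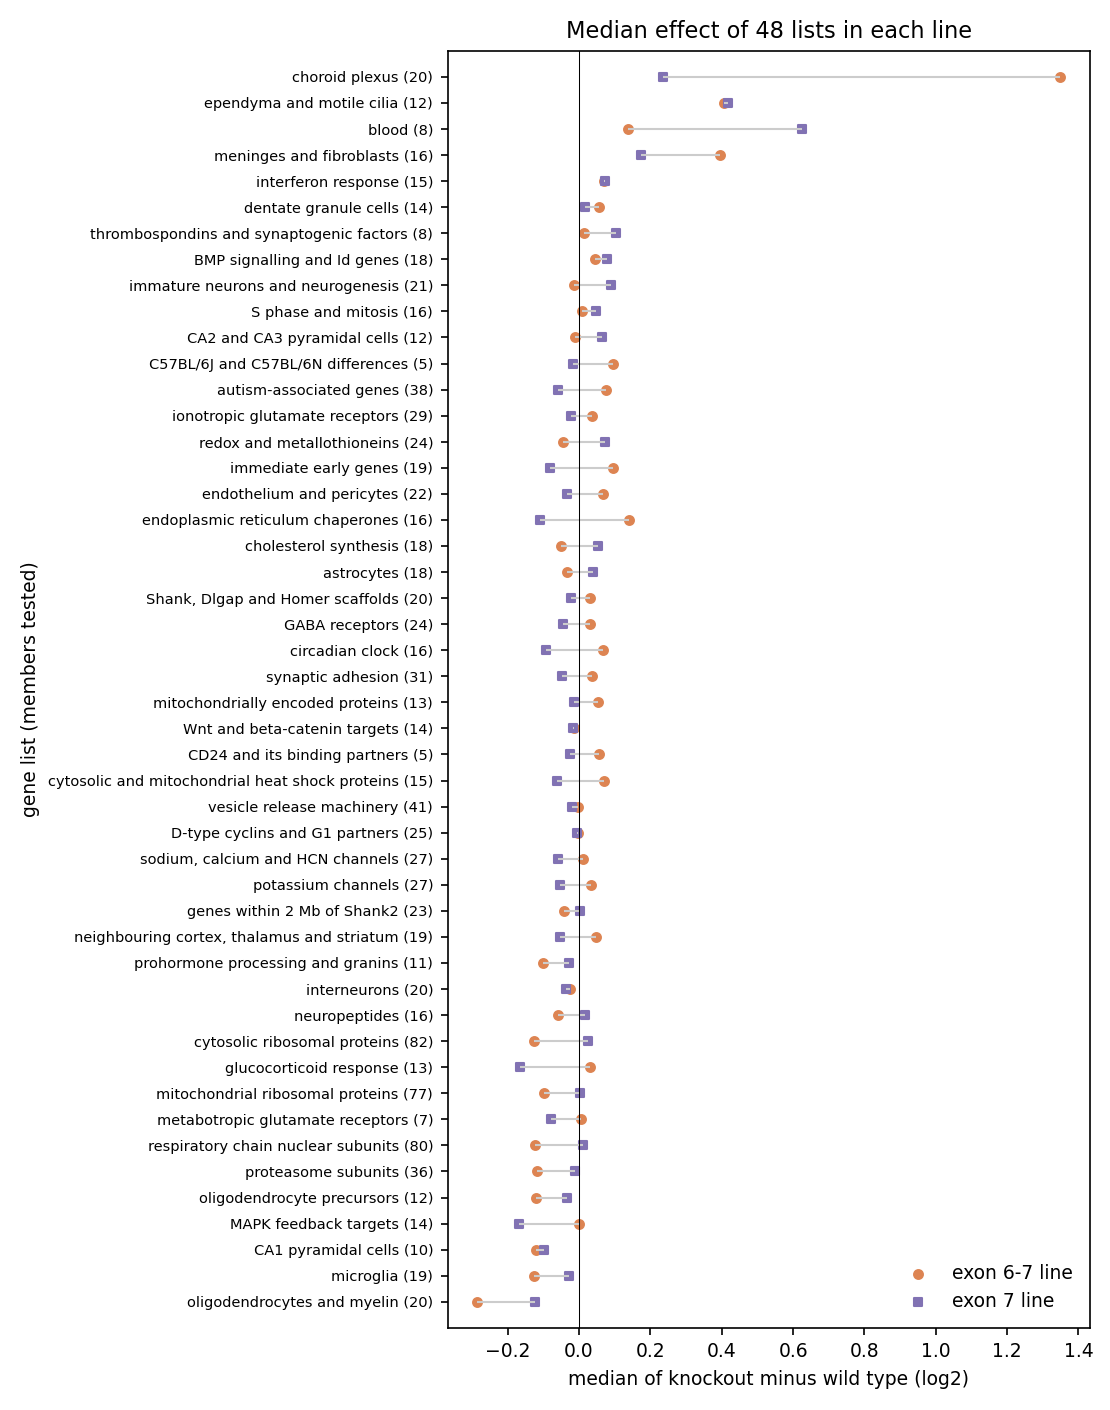
Median effect of each of 48 gene lists, as knockout minus wild type on the log2(scaled FPKM + 1) scale (horizontal axis), in the exon 6-7 line (orange circles) and the exon 7 line (purple squares), with the number of tested members in brackets. Choroid plexus, ependyma and meninges are positive in both lines, at 0.17 or more, and oligodendrocytes are negative in both, at −0.29 and −0.12.

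Synaptic genes, among them known partners of SHANK2, had no shared shift in estimate. Of 20 tested Shank, Dlgap and Homer scaffold genes 13 had opposite signs in the lines, beside 7716 of 14214 over all genes, and the median was −0.00. Medians were 0.02 for 29 ionotropic glutamate receptor genes, −0.05 for 7 metabotropic ones, −0.00 for 24 GABA receptor genes, −0.00 for 31 synaptic adhesion genes and −0.01 for 41 genes of vesicle release. In these 6 lists 0 genes passed; at an unadjusted limma p under 0.05 were Shank2 itself, the adhesion gene Cbln1, and the release genes Syt2 and Unc13c, all with negative estimates. Syt2, a calcium sensor of fast transmitter release, had the smallest p of the release genes and stood at −0.30 (−0.28 and −0.32). The parvalbumin gene Pvalb, of fast-spiking interneurons, is on the interneuron list and stood at −0.25. Of 20 tested genes of that list 3 were positive in both lines, 8 negative in both and 9 of opposite sign. Over all 14214 genes these counts were 2972, 3526 and 7716. Htr3a and Nos1, of the same list, stood at 0.13 and 0.11.

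For several processes the estimates of the 2 lines had opposite signs in most genes. Of 16 endoplasmic reticulum chaperone genes 13 had opposite signs, with medians of 0.14 and −0.11. Opposite signs were also seen in 10 of 13 glucocorticoid response genes, 29 of 38 autism-associated genes and 11 of 16 circadian clock genes, beside 7716 of 14214 over all genes. The genes of cytosolic ribosomal proteins had medians of −0.13 and 0.03, and nuclear genes of the respiratory chain −0.12 and 0.01. Of 15 interferon response genes 9 were positive in both lines, beside 2972 of 14214 over all genes, with a median of 0.14. In this list 0 passed and 2 had an unadjusted limma p under 0.05, both positive (background 1.83%). Ifitm3, an antiviral membrane protein, had the smallest p of these and stood at 0.31 (0.28 and 0.35), but at −0.05 within set A.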

How the data were processed

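Hippocampal poly(A) RNA of 12 mice was sequenced from TruSeq libraries, per the labels' protocols. The authors deposited 1 table of FPKM values per mouse with Ensembl gene identifiers, per the file headers, and CASAVA, Cufflinks, GSNAP and the mm10 build are listed in the submitters' processing notes. How reads were counted, whether strand was used and how reads with several matches were handled was not given in the sources used here. Depth is unknown. Groups came from the titles and genotype labels.

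An unlisted gene was set to 0. Each library was divided by its median ratio to the geometric mean of all libraries over 12511 genes with at least 1 FPKM in all 12. Genes with a mean of at least 1 scaled FPKM were tested as log2(scaled FPKM + 1), leaving out 108 small RNA genes. Of the 14214 genes tested, 172 were unlisted in at least 1 library. At most 0.00546% of values were equal between 2 libraries. The test was limma 3.58.1 (limma-trend, R 4.3.3, two-sided, Benjamini-Hochberg over all tested genes, threshold 0.05): line and genotype for the shared effect (9 residual degrees of freedom), and 4 group means for the line effects and their difference (8). Exact permutation tests over 400 relabellings within lines were added for Shank2, Ccnd1 and Cd24a. Scripts were tested on simulated data. Symbols and coordinates came from GENCODE M21 (mm10), promoters from RefSeq (GRCm38.p6).

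The rule for named genes gave Shank2, Ccnd1 and Cd24a; genes past the threshold; then, to 12 in each direction, those with the smallest unadjusted p and the same sign in both lines, without clone and pseudogene names; all tested genes within 2 Mb of Shank2; the D-type cyclins and their kinases; and, from each list, at most 4 members, taken by smallest p. Other genes named (Axin2, Dusp6, Foxj1, Ttr, Mbp, Prox1, Wfs1, the partners of CD24) were taken as the usual markers of their list. The members and the 48 lists were chosen with earlier results of these data known, so no list count is independent support. No set test was run. Alternatives were pseudocounts, filters, scalings, other blocks and weights, length and GC trends, and each mouse left out; the single library sets were added after seeing the data.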

Additional observations from a re-analysis of the deposited data

Results flagged for a closer look

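Rps3a1, a gene of the small ribosomal subunit, differed between the lines in a direct test of the difference. Its knockout effects, 5.08 for exon 6-7 and −0.08 for exon 7, gave a difference of 5.16 on the log2(scaled FPKM + 1) scale (limma adjusted p = 3.17e-08). The exon 6-7 wild types were at 2.66, 1.71 and 2.85 scaled FPKM and their knockouts at 105, 113 and 122, while the exon 7 wild types were at 116, 128 and 136 and their knockouts at 112, 123 and 125. The 3 low values are thus those of wild-type mice, and the gene carries no effect shared by the lines.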

How the results depend on the processing

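The shared effect of Ccnd1 stayed negative under all 27 alternatives, from −0.81 to −0.54, and was past the threshold in 18 of the 26 with a test. Leaving out 1 mouse gave −0.77 to −0.66 and 0 to 1 genes past the threshold of the shared effect (0 without WT778, WT865, KO776, KO777, WT993, KO990 or KO994). Set B alone gave −0.65 and 0 genes. The count was 2 with no filter on low values (Ccnd1 and Gm26793) and 2 with 4 group means (Ccnd1 and Rps3a1). The exon 6-7 line gave 2 genes, 5 with no filter and 1 to 6 with 1 mouse left out (1 without WT778, WT865 or KO776, 5 without WT809, 6 without KO864). The exon 7 line gave 0 genes, 1 with a pseudocount of 0.1, 1 with no filter, 3 in set B alone and 0 to 2 with 1 mouse left out (1 without WT993 or KO969, and 2, Ccnd1 among them, without WT999). The difference between lines gave 1 gene, 2 with a pseudocount of 0.1, with array quality weights or with small RNAs kept, 3 in set B alone and 1 to 3 with 1 mouse left out (3 without KO864 or KO969). The causes were not tested; leaving out mice leaves fewer samples to test. Cd24a was positive under its 27 alternatives (0.29 to 0.42) and past the threshold in 0 of 26. List medians kept their sign under 21 alternatives for ependyma (0.19 to 0.53), choroid plexus (0.37 to 1.06), meninges (0.15 to 0.36) and myelin (−0.25 to −0.11), and under 20 for blood (−0.04 to 1.34). FPKM keep no depth, so low genes such as Spag16 and Crnde are the least certain. The mice of different groups share no replicate number, so they cannot be paired by number. A block on line by library set left 1 gene past the threshold, Ccnd1 at −0.70 (limma adjusted p = 0.0156).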
